A study of Homo sapiens with 9 samples.

Results

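The Hippo pathway genes described here are 10 genes: the DNA-binding factors TEAD1, TEAD2, TEAD3 and TEAD4, their coactivators YAP1 and WWTR1 (the gene of TAZ), the kinases LATS1 and LATS2, and the target genes CCN1 and CCN2. Accessible regions were given to a gene when they touched its RefSeq span on GRCh38, or lay within 50 kb of either end with no other protein-coding gene nearer. This gave the 10 genes 47 of 62779 regions in the list for hypoxia with shZHX2, 55 of 77451 in the list for hypoxia with shCtrl and 69 of 90962 in the list for normoxia with shCtrl. The regions were mapped by ATAC-seq, in which a transposase cuts open chromatin, in T47D, a line of human luminal breast cancer cells. Per the labels, 3 groups of 3 samples were made: cells with a short hairpin RNA against ZHX2 (shZHX2) in hypoxia, cells with a control hairpin (shCtrl) in hypoxia, and shCtrl cells in normoxia. All the cells had been infected with lentivirus and kept under hygromycin or puromycin. Oxygen level, length of the hypoxia, number of hairpins and degree of knockdown are not given in the sources used here. The series asks what ZHX2, a zinc finger and homeobox protein, does to chromatin in hypoxic breast cancer cells, so hypoxia with shZHX2 was set against hypoxia with shCtrl, and hypoxia against normoxia in shCtrl cells.

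In the Hippo pathway, the LATS kinases phosphorylate YAP and TAZ and keep them out of the nucleus. When the kinases are inactive, YAP and TAZ enter the nucleus, bind TEAD factors and switch on genes such as CCN1 and CCN2, which encode secreted matricellular proteins, and LATS2, which feeds back on the pathway. TEAD factors recognise the letters GGAATG. In breast cancer the pathway is known for its part in growth, invasion and the response to stiff matrix.

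The 3 samples of a group stand behind a single list, so no value below has a replicate check and no test is given. A region is called where the authors' threshold was passed, and 2 regions count as the same when they share at least 1 bp. Read depths are unknown. The list for hypoxia with shZHX2 was the shortest and that for normoxia the longest, as were the counts of the 10 genes; the part of list length in each difference was not tested beyond counts from lists cut to equal length. The luminal markers ESR1, GATA3, FOXA1, KRT8, KRT18, KRT19, ELF3 and SPDEF had a region at a gene start in every list, 8 of 8. Of 5 basal or mesenchymal markers 1 had one, ZEB1, while KRT5, KRT14, TP63 and VIM had none in any list. Of the blood markers 1 of 3 had one (CD3E), of the endothelial and stromal markers 1 of 3 (COL1A2), and the liver marker ALB had none, in each list alike. A gene start is the 1 kb on either side of a start in the RefSeq promoter table, or of either gene end where that table does not list the gene.

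The upstream sequences that bear on the results are those of CCN2 and TEAD2, whose start regions differed between the lists, of YAP1, whose start was called in all 3, and of WWTR1, with 1 called and 1 uncalled start. They are the 250 bases before the annotated start from RefSeq (GRCh38.p14), 5′ to 3′ on the strand of the gene, and capitals mark GGAATG. The promoter table lists 7 of the 10 genes with 10 windows; CCN1, TEAD1 and TEAD4 are not among them. The uncalled WWTR1 window comes last.
CCN2, chr6:131951373-131951622, minus strand: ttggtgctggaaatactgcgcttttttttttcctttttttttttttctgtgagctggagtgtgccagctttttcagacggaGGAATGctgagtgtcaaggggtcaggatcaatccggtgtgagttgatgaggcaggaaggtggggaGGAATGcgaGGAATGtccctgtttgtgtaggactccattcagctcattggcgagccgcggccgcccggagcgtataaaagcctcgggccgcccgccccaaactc
TEAD2, chr19:49361518-49361767, minus strand: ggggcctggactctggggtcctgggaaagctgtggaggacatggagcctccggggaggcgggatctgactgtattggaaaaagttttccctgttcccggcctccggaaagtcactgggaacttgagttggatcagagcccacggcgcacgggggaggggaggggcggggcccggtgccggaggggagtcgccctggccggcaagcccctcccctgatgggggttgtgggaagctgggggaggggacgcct
YAP1, chr11:102110197-102110446, plus strand: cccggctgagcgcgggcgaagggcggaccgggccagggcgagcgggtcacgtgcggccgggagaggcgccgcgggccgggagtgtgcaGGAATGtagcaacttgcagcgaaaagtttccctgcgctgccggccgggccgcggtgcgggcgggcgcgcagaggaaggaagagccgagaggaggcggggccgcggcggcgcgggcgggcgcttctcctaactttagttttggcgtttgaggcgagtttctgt
WWTR1, chr3:149658026-149658275, minus strand: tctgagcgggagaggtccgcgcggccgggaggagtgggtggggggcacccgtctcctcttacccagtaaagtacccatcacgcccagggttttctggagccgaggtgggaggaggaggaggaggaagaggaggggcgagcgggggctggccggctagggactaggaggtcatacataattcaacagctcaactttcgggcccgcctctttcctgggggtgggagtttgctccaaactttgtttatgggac
WWTR1, chr3:149703274-149703523, minus strand: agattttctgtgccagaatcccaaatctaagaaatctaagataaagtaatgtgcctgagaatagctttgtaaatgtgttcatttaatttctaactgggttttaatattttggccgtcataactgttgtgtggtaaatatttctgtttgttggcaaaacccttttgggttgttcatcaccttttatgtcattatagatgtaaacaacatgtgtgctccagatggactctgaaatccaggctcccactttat

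The CCN2 window holds GGAATG 3 times, beginning 169, 104 and 95 bases before the start. YAP1 has it 1 time, 162 bases before its start, and none of the other 8 windows holds it on either strand. Among all 35114 promoter windows of this length 11.9% hold GGAATG on either strand, and 29 (0.0826%) hold it 3 or more times. All 3 copies at CCN2 lay inside the region called in normoxia and inside no region of either hypoxia list. The copy at YAP1 lay inside a called region in all 3 lists. A match is a description of these letters and does not show that a factor was bound. The core letters of the hypoxia response element, ACGTG on either strand, occur in the windows of YAP1 (as an overlapping pair on the 2 strands, 203 and 202 bases before the start), LATS2 and the LATS1 start at 149718101, against 18.5% of all windows. The AP-1 letters TGANTCA occur in that LATS1 window only, against 6.57% of all windows, and the CArG box bound by SRF occurs in none of the 10, against 1.16%. The windows also differ in composition. GC content was 84.0% at TEAD3, 72.0% at YAP1 and 53.2% at CCN2, where the median over all windows is 58.0%. The called WWTR1 window had 62.0% GC and 13 CpG, and the uncalled one had 35.2% GC and 1 CpG.

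Most regions of the 10 genes were called under every condition. The region on the CCN2 start, and 1 with fold 1.86 between the 2 TEAD2 starts, were called in normoxia and in neither hypoxia list. TEAD2 still had a called region within 1 kb of a start in every list. Merging the lists gave 70 sites at the 10 genes, of which 46 (65.7%) were called in all 3 lists, against 58.4% of the 97804 sites of the whole series. Another 16 sites were called in normoxia only (22.9%, against 16.7% of all sites), 7 in both shCtrl lists and not with shZHX2 (10.0%, against 15.3%), and 1 with shZHX2 only (1.43%, against 2.05%). None of the 70 was called in both hypoxia lists and not in normoxia, or in hypoxia with shCtrl alone, patterns that 734 and 4249 (4.34%) of all sites have.

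**Figure D1:**
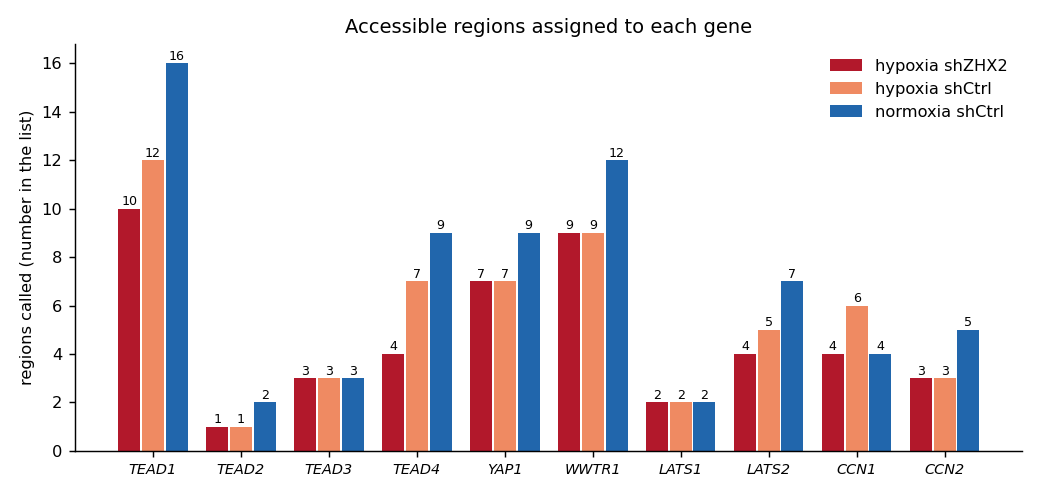
Number of regions assigned to each of the 10 genes (y axis) in the list for hypoxia with shZHX2, for hypoxia with shCtrl and for normoxia with shCtrl, 1 list per group and so no error bars. TEAD1 had the most in each list, with 10, 12 and 16, and LATS1 and TEAD3 had equal numbers in the 3 lists.

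The members' regions were ordinary in strength. Their median fold enrichment over local background was 4.80 in hypoxia with shZHX2, 4.14 in hypoxia with shCtrl and 4.19 in normoxia, against medians of 4.79, 4.26 and 4.13 over all regions of those lists. These folds are the authors' own and rank regions within 1 list. Of the regions, 32, 39 and 52 lay in a gene span in the same order of lists, and 15, 16 and 17 in the 50 kb beyond. Exon and intron positions were not used here.

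CCN2, a matricellular growth factor gene and a widely used readout of YAP and TAZ activity, had 3 regions in hypoxia with shZHX2, 3 in hypoxia with shCtrl and 5 in normoxia. The 2 extra normoxia regions were the only ones on the gene. One, at chr6:131951293-131951573, covered the start and 201 of the 250 bases printed above, with fold 3.60 and −log10 q 26.6 in its list. The other, at chr6:131949610-131950297, lay within the gene with fold 3.95 and −log10 q 29.8. Neither hypoxia list had a region within 1 kb of the start. In its flanks 3 regions were called in every list. The one upstream, whose near edge lies 3309 bp beyond the start in hypoxia with shCtrl, had folds of 6.24 in hypoxia with shZHX2, 5.09 in hypoxia with shCtrl and 4.70 in normoxia. The other two lay 22949 and 24444 bp past the far end of the gene in normoxia. Of the 14791 protein-coding genes with a start called in normoxia, 368 (2.49%) had it called in neither hypoxia list; CCN2 was 1 of 10 members in that class. Both normoxia regions were in the weaker 50% of their list by fold. Cut to equal length by score, the normoxia list kept both, as its −log10 q limit was 21.7. Such a cut only removes regions, so it could not give them a hypoxia call. The gene also lies inside the span of the antisense RNA gene CCN2-AS1, and the regions carry no strand.

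**Figure D2:**
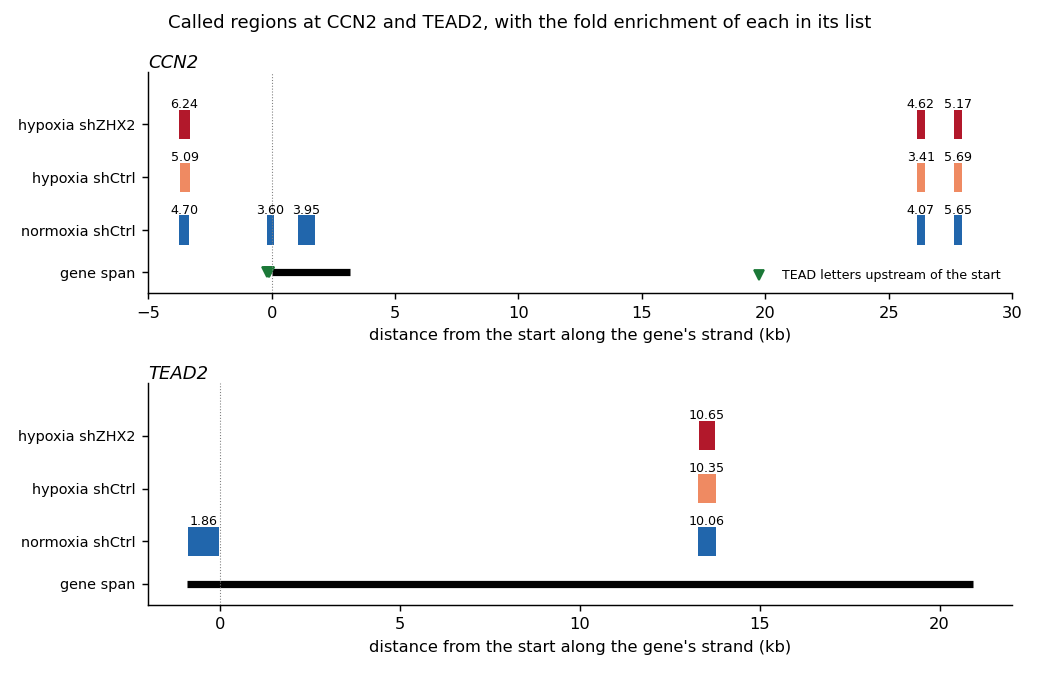
Called regions at CCN2 and TEAD2 against the distance in kb from the annotated start along the gene's strand, in the rows of hypoxia shZHX2, hypoxia shCtrl and normoxia shCtrl; the number over a box is its fold in that list, the black bar is the gene span and green triangles are the 3 GGAATG copies. Only regions assigned to the gene are drawn. Of these, the boxes at the start and the other box within CCN2 appear in the normoxia row alone, and the rest appear in all 3 rows. The region in the span of DKKL1, called in all 3 lists within 1 kb of the upper TEAD2 start, is not drawn.

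CCN1, the other matricellular target gene, kept its start in all 3 lists. The region over it was 2251 bp wide with fold 3.65 in hypoxia with shZHX2 (chr1:85580494-85582744) and 2251 bp wide with fold 3.45 in normoxia (chr1:85580489-85582739). In hypoxia with shCtrl the same stretch was called as 2 regions, of 1173 bp with fold 3.79 and of 454 bp with fold 3.56. CCN1 had 4, 6 and 4 regions in hypoxia with shZHX2, hypoxia with shCtrl and normoxia, and the extra 2 in hypoxia with shCtrl came from regions that normoxia had as 1. All its other regions lay 15 to 28 kb past the gene. The strongest CCN1 region in normoxia, with fold 6.11 at chr1:85599139-85599868, had fold 3.88 in hypoxia with shCtrl and 4.14 with shZHX2.

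TEAD1, the TEAD gene with the most regions, had 10 in hypoxia with shZHX2, 12 in hypoxia with shCtrl and 16 in normoxia. As many or more were assigned to 3.40%, 3.35% and 2.41% of all protein-coding genes in those lists. TEAD1 has the longest span of the 10 genes, 270317 bp, and these shares take no account of gene length. The region over its lower-numbered end had folds of 6.48, 6.61 and 6.88 in the same order. Of its normoxia regions 4 had no call in hypoxia, and the strongest of them, at chr11:12746659-12747056 with fold 4.70, had the highest fold of any normoxia-only region of the 10 genes. Another 2 TEAD1 regions were called in both shCtrl lists and not with shZHX2. The stronger, chr11:12914561-12914898, had fold 4.16 in hypoxia with shCtrl and 5.16 in normoxia.

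TEAD2 had 1 region in each hypoxia list and 2 in normoxia. The shared region, at chr19:49347738-49348242 in normoxia, lay inside the gene and had folds of 10.6 in hypoxia with shZHX2, 10.4 in hypoxia with shCtrl and 10.1 in normoxia, within the strongest 2% of each list. The normoxia-only region, chr19:49361535-49362393, lay between the 2 annotated starts of TEAD2 and covered 233 of the 250 bases printed above. Its fold of 1.86 was near the bottom of the normoxia list, and it lies in the span of the neighbouring gene DKKL1 as well. A region in the span of DKKL1, within 1 kb of the upper TEAD2 start, was called in all 3 lists and is not counted for TEAD2.

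TEAD3 and TEAD4 differed from each other. TEAD3 had the same 3 regions in every list, with the region over its start at folds of 3.97 in hypoxia with shZHX2, 3.84 in hypoxia with shCtrl and 3.83 in normoxia; that region also touches TULP1. TEAD4 had 4, 7 and 9 regions in the same order. Its end regions and those at chr12:2977132-2978098 and chr12:3033968-3034561 (normoxia positions) were called in all 3 lists. Another 3 within the gene, with folds of 2.67 to 2.80 in hypoxia with shCtrl, were called in both shCtrl lists and not with shZHX2, the most of any member. These were weak calls, with −log10 q of 9.57 to 12.1 in hypoxia with shCtrl. In lists of equal length, where the limit was 17.1, no TEAD4 region was among the 4 missing with shZHX2. Those 4 lay at TEAD1, WWTR1, LATS2 and CCN1. A further 2 TEAD4 regions were called in normoxia only, the stronger at chr12:2970752-2971152 with fold 4.23.

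**Figure D3:**
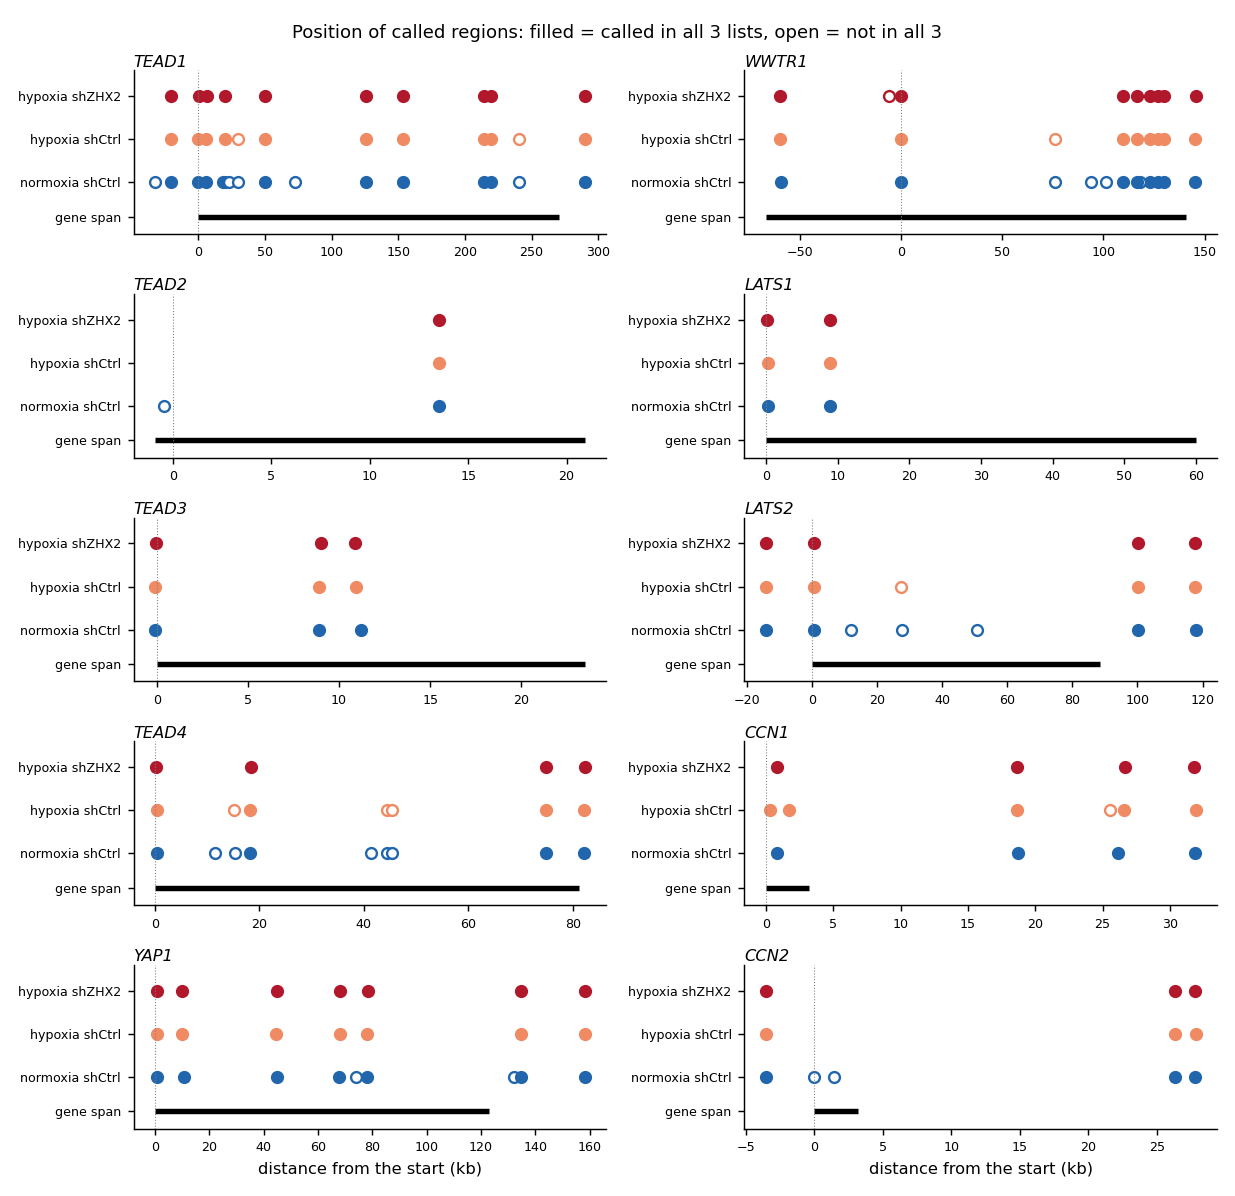
Centres of the called regions of each gene against the distance in kb from its start (for TEAD1, TEAD4 and CCN1 from the lower-numbered gene end), in the rows of hypoxia shZHX2, hypoxia shCtrl and normoxia shCtrl; filled points are regions that overlap a region of both other lists and open points are the rest, and the black bar is the gene span. Open points sit mostly in the normoxia row and inside the gene spans, and TEAD3 and LATS1 have none.

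YAP1, the coactivator that binds TEAD factors, had 7 regions in each hypoxia list and 9 in normoxia. The region over its start spanned more than 2 kb in each list, with folds of 3.81 in hypoxia with shZHX2, 3.996 in hypoxia with shCtrl and 3.999 in normoxia. The strongest YAP1 region lay past the gene, at chr11:102267922-102269333 in normoxia, with folds of 6.99, 6.27 and 6.62 in the same order. In normoxia 2 regions were called that neither hypoxia list held, the stronger at chr11:102184404-102184775 within the gene with fold 3.999. No YAP1 region of hypoxia with shCtrl was missing with shZHX2.

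WWTR1 had 9 regions in each hypoxia list and 12 in normoxia, but the 9 were not the same 9. Its start at 149658025 on chromosome 3 was covered in every list, with folds of 5.47 in hypoxia with shZHX2, 5.62 in hypoxia with shCtrl and 5.18 in normoxia, and its start at 149703273 had no region within 1 kb in any. A region at chr3:149581842-149582174, with fold 4.31 in hypoxia with shCtrl, was not called with shZHX2, and it was the strongest of the 8 such regions of the 10 genes. A region at chr3:149664051-149664301, with fold 3.19, was called with shZHX2 and in neither shCtrl list. It was the only shZHX2 region of the 10 genes with no call in hypoxia with shCtrl in the lists as deposited. With lists of equal length by score there were 5, since the cut removed the shCtrl calls at the others. A further 3 normoxia regions of WWTR1 had no call in hypoxia, with folds of 2.90 to 3.03.

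The kinase genes differed in number of regions. LATS1 had 2 in each list: the region over its start at 149718101 had folds of 6.89 in hypoxia with shZHX2, 7.51 in hypoxia with shCtrl and 7.23 in normoxia, and the other lay within the gene. LATS2 had 4, 5 and 7 regions in the same order. The region over its start had folds of 5.47, 5.29 and 5.36. Its strongest region lay 29025 bp past the far end of the gene in normoxia, at chr13:20943472-20944011, with folds of 11.5, 9.64 and 10.6. It ranked in the top 0.911% of the list for hypoxia with shZHX2, the top 2.07% for hypoxia with shCtrl and the top 0.777% for normoxia. One LATS2 region, chr13:21034012-21034233 in hypoxia with shCtrl, was not called with shZHX2, and 2 normoxia regions within the gene, with folds of 2.64 and 3.02, had no call in hypoxia.

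Hypoxia was set against normoxia in shCtrl cells. Of the 55 regions of the 10 genes in hypoxia, 0 were not called in normoxia; the Wilson 95% interval of that share is 0 to 6.53%, and by the limit of 3 counts a count of 0 allows up to 5.45%. The share was 6.44% over the list and 5.61% over regions assigned to any protein-coding gene. Both lie within the Wilson interval and above the limit of 3 counts, so the 2 limits differ here. In the other direction 16 of the 69 normoxia regions, at 7 of the 10 genes, were not called in hypoxia, which is 23.2% (Wilson 95% interval 14.8 to 34.4). That share was 20.6% over the whole normoxia list and 19.1% over regions assigned to a protein-coding gene, so the members' share is near the background. Intervals cover counting error only, and regions of 1 gene are not independent. TEAD3, LATS1 and CCN1 had no such region. The 16 regions had folds of 1.86 to 4.70 with a median of 3.03, against a median of 4.60 for the 53 that were also called in hypoxia. In the weaker 50% of the normoxia list by fold 14 of 34 member regions had no call in hypoxia (41.2%, against 39.1% of all such regions), and in the stronger 50% it was 2 of 35 (5.71%, against 2.09%). The 2 stronger ones lay within TEAD1 and TEAD4. At gene starts, 2 of 11 member regions of normoxia were not called in hypoxia, those of CCN2 and TEAD2, against 4.09% of all 14726 normoxia regions at a gene start. The TEAD2 one had fold 1.86, and TEAD2 had another region at a start in every list. By gene, 1 of 10 members, CCN2, had its start called in normoxia only, against 2.49% of protein-coding genes with a start called in normoxia.

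**Figure D4:**
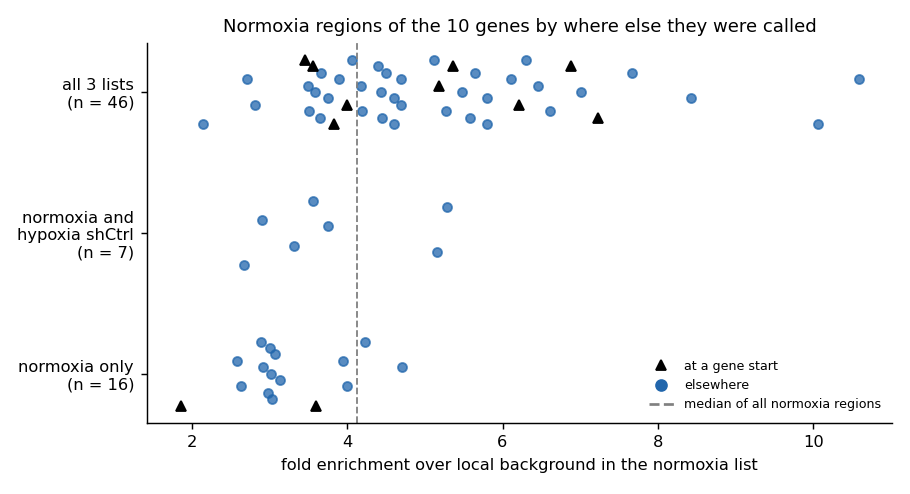
Fold enrichment (x axis) of the 69 normoxia regions of the 10 genes, in rows by the lists that also called them; black triangles lie at a gene start, the dashed line is the median of 4.13 over all normoxia regions, and the height within a row has no meaning. The 16 normoxia-only regions lie between 1.86 and 4.70, and 14 of them are left of the line.

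Hypoxia with shZHX2 was then set against hypoxia with shCtrl. Of the 55 regions of hypoxia with shCtrl, 8 were not called with shZHX2 (14.5%, interval 7.56 to 26.2): 3 at TEAD4, 2 at TEAD1 and 1 each at WWTR1, LATS2 and CCN1. The share was 25.0% over the whole list and 22.6% over regions assigned to a protein-coding gene, and both lie within that interval. All 8 were also called in normoxia, 7 lay in a gene span, none was at a gene start, and their folds were 2.67 to 4.31. The CCN1 region belongs to a site called in all 3 lists, since a wider normoxia region joins it to its neighbour, so the sites above number 7. In the weaker 50% of the list 7 of 31 member regions were not called with shZHX2 (22.6%, against 45.5% of all such regions), and in the stronger 50% it was 1 of 24 (4.17%, against 4.63%). In the other direction 1 of 47 shZHX2 regions, the one at WWTR1, was not called with shCtrl (2.13%, interval 0.377 to 11.1), against 7.11% over that list and 6.43% over its regions assigned to a protein-coding gene. With the lists cut to equal length by score, these counts of 8 and 1 became 4 and 5. The lists then held 47 regions of the 10 genes in hypoxia with shZHX2, 47 in hypoxia with shCtrl and 51 in normoxia. The list with shZHX2 was the shortest and was not cut. Those 5 shZHX2 regions lay at YAP1 and WWTR1, with 2 each, and at TEAD4. Only the one at chr3:149664051-149664301 had no call in the full list for hypoxia with shCtrl. The cut removed the shCtrl calls at the others. Its −log10 q limit was 17.1 for hypoxia with shCtrl, while the lowest value in the uncut list with shZHX2 was 8.10. In the same cut lists 2 regions of hypoxia with shCtrl had no call in normoxia, and 8 normoxia regions had none in hypoxia. The normoxia limit was 21.7. The full normoxia list called both of the 2, and the full list for hypoxia with shCtrl called some of the 8. No share over all regions of the cut lists is given, so these counts have no background. Both comparisons use the list for hypoxia with shCtrl. No shZHX2 cells were profiled in normoxia here, so what the hairpin does at low oxygen cannot be told apart from what it does at any oxygen level.

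Other genes of the pathway were read from the same lists. Of 25 further pathway genes, among them the MST kinase genes STK3 and STK4, the scaffold SAV1, the membrane-linked activators NF2 and WWC1, the YAP-binding angiomotins and the TEAD cofactors of the VGLL family, 20 had a start called in all 3 lists. VGLL3, a TEAD cofactor, had its start called in hypoxia with shCtrl and in normoxia and not with shZHX2, where it had no region at all, against 2 in hypoxia with shCtrl and 3 in normoxia; 422 of the 14428 protein-coding genes with a start called in hypoxia with shCtrl had none called with shZHX2. STK3 had a gene end called in normoxia only, as had 368 of the 14791 protein-coding genes with a start called in normoxia. FRMD6, TAOK3 and VGLL1 had no start called in any list, though FRMD6 had 14, 16 and 20 regions in hypoxia with shZHX2, hypoxia with shCtrl and normoxia. Of the 176 regions of the 25 genes in hypoxia with shCtrl, 5 (2.84%) were not called in normoxia, against 6.44% over the list, and 44 (25.0%) were not called with shZHX2, against 25.0%. Of their 207 normoxia regions 36 (17.4%) had no call in hypoxia, against 20.6% over the list, and 14 of their 147 shZHX2 regions (9.52%) were not called with shCtrl, against 7.11%.

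Of 21 further target genes of YAP and TAZ, 19 had a start called in all 3 lists, including ANKRD1, AXL and AREG, and FOXF2 and NT5E had none in any list; no start differed between lists. Of their 116 regions in hypoxia with shCtrl, 5 (4.31%) were not called in normoxia and 21 (18.1%) were not called with shZHX2, against 6.44% and 25.0% over the list. Of 140 normoxia regions 30 (21.4%) had no call in hypoxia, against 20.6%, and 5 of 100 shZHX2 regions (5.00%) were not called with shCtrl, against 7.11%. Over both gene lists the most normoxia regions not called in hypoxia were at ASAP1, with 7 of 20. PTPN14 had 6 of 15, AMOTL1 6 of 21 and CRIM1 6 of 17, where the share over the whole list is 20.6%. The most regions of hypoxia with shCtrl not called with shZHX2 were at STK3, with 8 of 26. WWC1 had 5 of 20 and AMOTL1 5 of 15, where the share over the whole list is 25.0%. These genes were picked by count, and genes with many regions can reach higher counts. Of all 20037 protein-coding genes, 69.8% had a start called in all 3 lists.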

How the data were processed

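Accessible chromatin was profiled by ATAC-seq in 9 T47D samples, analysed here as 3 lists of regions, 1 for each group of 3 samples. The submitters' processing notes name FastQC, Bowtie2, SAMtools, MACS2 and hg38; versions, settings, any shift of read positions and how 3 samples gave 1 list are not given in the sources used here. For a region, the deposited lists hold the authors' score (10 times the −log10 q-value, from the values), fold enrichment ratio over local background and −log10 q-value. No file holds values per sample or read depths.

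With Python 3.11.15 and pandas 2.3.3, regions were matched by overlap of at least 1 bp and assigned to 20037 RefSeq protein-coding genes (GRCh38.p14); a region in several spans counted for each. The code was tested on simulated regions. No test was run. Wilson intervals have 95% confidence and cover counting error only. The 10 genes, the other gene lists and the naming rule (all 10 genes; of other pathway genes, those with differing or uncalled starts and those with the most lost regions) were chosen with earlier results of these data known; 1 listed target gene is not reported here. Alternatives were another overlap, stronger regions, lists of equal length, other assignment and start windows.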

Additional observations from a re-analysis of the deposited data

How the results depend on the processing

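No read depth, replicate spread or per-sample value stands behind these counts, so leaving out a sample was not possible. No paired analysis was possible because each group has 1 list and no column carries a replicate number. The 4 counts of regions that differed between paired lists were the same with an overlap of 50% of the shorter region, and moved by less than 1.5 times within 20 kb, in gene spans only or with the nearest of all RefSeq genes.

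In the stronger 50% of each list by fold, which has fewer regions by construction, the 10 genes held 24 regions in hypoxia with shZHX2, 24 in hypoxia with shCtrl and 35 in normoxia. These stronger regions were compared with the full other list. Of the 35 normoxia regions 2 had no call in hypoxia with shCtrl (5.71%, against 2.09% of all such regions). Of the 24 regions of hypoxia with shCtrl 1 had no call with shZHX2 (4.17%, against 4.63%). Of the 24 shZHX2 regions 0 had no call in hypoxia with shCtrl, and no share over all regions is given for that. With lists of equal length by score there were also fewer regions in hypoxia with shCtrl (47) and in normoxia (51). The list for hypoxia with shZHX2 was the shortest, so it was not cut and kept its 47. In the lists of equal length, normoxia lacked 2 regions of hypoxia with shCtrl (at YAP1 and LATS2), and hypoxia with shCtrl lacked 8 normoxia regions. Hypoxia with shZHX2 lacked 4 regions of hypoxia with shCtrl, and 5 shZHX2 regions had no call in hypoxia with shCtrl. The full normoxia list called both of the 2. The full list for hypoxia with shCtrl called all but 1 of the 5. Shares over all regions of the cut lists are not given. Both CCN2 regions were kept in the cut normoxia list and so stayed among the 8, since the cut adds no hypoxia calls. The TEAD2 start region was below the score limit of that list. A start was called in all 3 lists at 9 of the 10 genes, against 69.8% of all 20037 protein-coding genes. It was 9 with 2 kb windows and 6 in the stronger 50%, for which no share over all genes is given.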
